A study of Mus musculus with 6 samples.

Results

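The aldo-keto reductases of steroid metabolism described here are 9 mouse genes, 7 of the Akr1c family (Akr1c6, Akr1c12, Akr1c13, Akr1c14, Akr1c18, Akr1c19 and Akr1c20) together with Akr1d1 and Akr1b7, out of 54446 genes in the deposited table and 16 Akr1 genes in it. They are listed by symbol and were chosen by their scaled levels at weeks 0, 2 and 7 in these same libraries, so their levels and fold changes are given as a description without p-values. Poly-A RNA of mouse liver cells was sequenced at weeks 0, 2 and 7 of treatment with what the title calls MET/CAT and SB transposase, with 2 libraries a week and 6 in all. A transposase moves DNA that lies between its recognition ends into a genome, and the labels do not spell out CAT. The first library is labelled as from mice of mixed background, FVB/N with C57BL/6, and the number after C57BL/ differs in the label of every other library, so the background of those is unsure. No library of untreated mice at week 2 or week 7 is among those analysed, and nothing says whether 2 libraries of a week came from separate mice, so the tests measure the spread between libraries only.

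Aldo-keto reductases are soluble enzymes that use NADPH to turn aldehydes and ketones into alcohols. Members of the Akr1c family act on the ketone groups of androgens, progestins and related steroids, and in mice and humans their genes lie side by side as products of repeated gene duplication. In the liver such enzymes take part in the breakdown of steroid hormones, and Akr1d1 reduces the double bond of the first steroid ring on the way from cholesterol to bile acids.

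Each library held between 49353453 and 58434358 deposited counts. Levels are CPM, counts scaled to library size with trimmed-mean (TMM) factors, and a gene was called where edgeR's quasi-likelihood test over all 15368 tested genes gave a Benjamini-Hochberg adjusted p under 0.05. All 9 members passed the filter on low counts. The steps between low values led 1 read pair to be taken as about 4 deposited counts, so 12 counts, or 3 read pairs, were taken as the least that shows a gene. Xist, made from the inactive X chromosome of females, had 10 and 15 counts at week 0, 13236 and 12804 at week 2, and 0 in both libraries of week 7. Eif2s3y, Uty, Kdm5d and Ddx3y, all Y-linked, together had 0 counts in both week 2 libraries and between 4630 and 5226 in the others. The week 2 libraries therefore read as female and the others as male, and in each comparison with week 2 the week and the sex cannot be told apart. Of 7 genes higher in female mouse liver, all 7 rose at week 2 against week 0 and 3 rose at week 7, and of 8 genes higher in male liver, all 8 fell at week 2, while 5 fell and 1 rose at week 7. Of the week 7 calls, those of Cyp2b13 and Sult3a1 among the 3 were lost without any 1 of the week 2 or week 7 libraries, with an adjusted p of up to 0.0986 and 0.137, and that of Elovl3, the male-biased gene that rose, without replicate 1 of week 0 or of week 7, with values of 0.52 to 0.68 on the log2 scale over the libraries left out. At week 2, the call of Sult3a1 was lost without week 2 replicate 1, with an adjusted p of 0.051. These lists and the others below were chosen with earlier results of these data known, so their counts are a description only. Of all tested genes, 13.8% were called at week 7 and 18.6% at week 2 against week 0. The liver label was checked against hepatocyte markers (Alb, Apoa1, Ttr and others), whose summed level was 94875 and 94733 CPM at week 0, 123390 and 116543 CPM at week 2, and 83455 and 82647 CPM at week 7. Most of that sum is Alb: without it the other 6 markers found summed to 28954 and 29673 CPM at week 0, 25022 and 23936 CPM at week 2, and 29384 and 28229 CPM at week 7. Of the 7 markers found, 2 rose (Alb and Fgb) and 3 fell (Apoa1, Ttr and Hnf4a) at week 2 against week 0, and 2 rose and 2 fell at week 7. Cells of the adrenal gland or gonads were checked too, since some members are best known there: of 7 of their markers, Cyp11b1, Cyp11b2, Mc2r and Nr5a1 had 0 counts in all 6 libraries, and Cyp11a1 had 4 counts in 1 library. Star had 15 to 66 counts in every library. Cyp21a1 had 106 and 93 counts at week 0, 0 in both libraries of week 2, and 87 and 96 at week 7, and fell at week 2 against week 0 (edgeR adjusted p = 0.000147). The summed level of the 7 lay between 0.600 and 3.45 CPM.

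The members spanned a wide range of levels. Divided by the length of their annotated exons and rescaled to sum alike in every library (TPM), the order at week 0 was led by Akr1c6, the mouse enzyme that reduces androstenedione to testosterone, at 1388 ± 159 TPM (SD, n = 2, as for all means here). Akr1c14, which reduces dihydrotestosterone at its 3-keto group, followed at 374 ± 4.25 TPM. Akr1c13 at 139 ± 5.70 TPM lay above Akr1c20 at 104 ± 3.57 TPM and Akr1c12 at 101 ± 4.34 TPM, and Akr1c20 and Akr1c12 did not differ beyond their spread. Akr1d1 was at 84.3 ± 3.98 TPM and Akr1c19 at 16.5 ± 0.905 TPM, while Akr1c18 and Akr1b7 were at or near 0. At week 2 the order differed, with Akr1d1 at 210 ± 1.21 TPM and Akr1c20 at 165 ± 4.62 TPM above Akr1c13 at 134 ± 2.37 TPM, and Akr1c18 at 21.5 ± 1.28 TPM above Akr1c19 at 10.4 ± 0.463 TPM. At week 7 Akr1c13, at 124 ± 4.77 TPM, and Akr1c20, at 119 ± 6.88 TPM, did not differ beyond their spread, and Akr1c18, at 37.2 ± 1.23 TPM, again stood above Akr1c19, at 8.65 ± 0.228 TPM. The place of Akr1c19 depends on its length: with its shortest annotated transcript of 1242 bases in place of 5832 bases of exons, its level was 77.6 TPM at week 0, 48.8 TPM at week 2 and 40.6 TPM at week 7. That of Akr1c20 does too. With its shortest transcript of 1337 bases its mean was 145 TPM at week 0, near that of Akr1c13, 229.5 TPM at week 2, above Akr1d1, and 166 TPM at week 7, above Akr1c13.

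**Figure D1:**
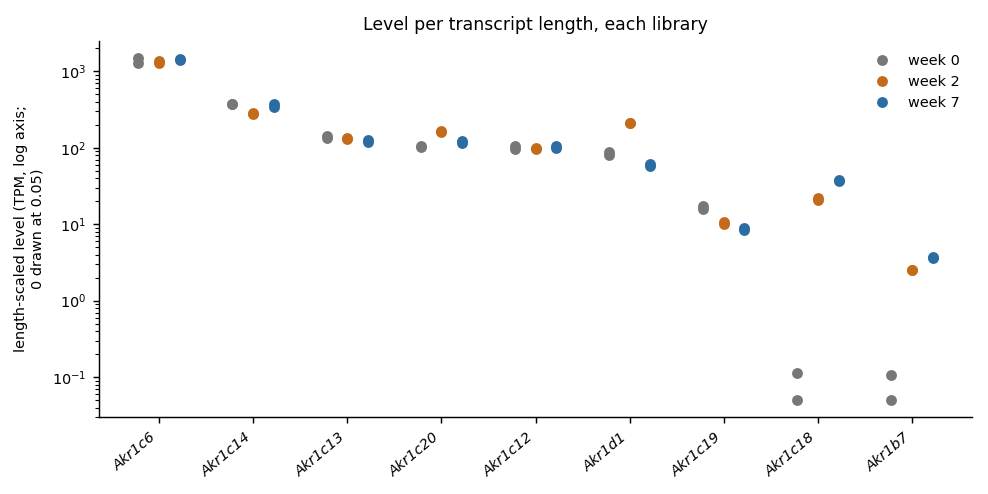
Length-scaled level (TPM, log axis) of the 9 members in each of the 6 libraries, coloured by week, with libraries at 0 drawn at 0.05. Akr1c6 is above the other members in every library, and Akr1c18 and Akr1b7 lie near the bottom at week 0 and well above it at weeks 2 and 7.

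The 7 Akr1c genes lie in 1 run on chromosome 13 in the order Akr1c14, Akr1c18, Akr1c13, Akr1c19, Akr1c12, Akr1c6 and Akr1c20 in the GENCODE M21 annotation, with Akr1c21 and Akr1e1 next. Akr1b7 lies at the end of the run Akr1b3, Akr1b8, Akr1b10 and Akr1b7 on chromosome 6, which also carries Akr1d1. Akr1c12 and Akr1c13 were the most alike of all member pairs, with 935 of 972 coding bases identical (96.2%), followed by Akr1c20 and Akr1c6 at 92.3%. The other Akr1c pairs were 72.5% to 77.8% identical, and Akr1d1 matched the Akr1c genes at 61.2% to 64.0% of bases. The stretch of 90 coding bases in which Akr1c12 and Akr1c13 differ most, numbers 313 to 402 of the coding sequence, is shown. It was picked for its differences, so the pair is more alike over the whole coding sequence. Capitals in Akr1c12 and Akr1c13 mark the 11 bases at which they differ from each other, and capitals in Akr1c18, shown as a more distant member, mark the 28 bases at which it differs from Akr1c13.
Akr1c12: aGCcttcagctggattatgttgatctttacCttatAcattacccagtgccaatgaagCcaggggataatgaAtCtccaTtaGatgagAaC
Akr1c13: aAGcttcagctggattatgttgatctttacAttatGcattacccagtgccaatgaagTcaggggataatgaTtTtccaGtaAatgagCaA
Akr1c18: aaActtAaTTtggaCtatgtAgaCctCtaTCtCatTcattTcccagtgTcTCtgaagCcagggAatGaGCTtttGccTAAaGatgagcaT
Only transcripts of genes with an Akr symbol were searched for shared stretches. Of the 150-base stretches of the Akr1c12 transcript, 79 (7.10%) occur unchanged in Akr1c13. No stretch of that length in the other 7 members occurs in a transcript of another Akr gene. For Akr1c12 the share was 17.3% at 75 bases and 28.6% at 50 bases. At 50 bases Akr1c6 shared 2.08% and Akr1c20 2.17%, most with each other. Akr1b7 shared 1.14%, most with Akr1b10, and Akr1c18 0.608%, most with Akr1cl. How the deposited counts treat reads that match 2 genes is not given in the sources used here. Values of Akr1c12 and Akr1c13 are therefore uncertain one by one, and their sum is given beside them. Only unchanged stretches were searched, so reads placed with mismatches between Akr1c6 and Akr1c20 were not tested. At week 0 Akr1c6 averaged 1201 CPM and Akr1c20 120 CPM, so such reads would weigh more on Akr1c20.

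Akr1c18 encodes the 20-alpha-hydroxysteroid dehydrogenase that inactivates progesterone and is best known from the mouse ovary at the end of pregnancy. It was at 0 and 4 counts at week 0. At week 2 it was at 14.96 and 13.5 CPM, and at week 7 at 25.9 and 27.4 CPM. It was thus below the floor in both libraries of week 0 and present in all 4 later ones, with no overlap between any weeks. Akr1c18 rose at week 7 and at week 2 against week 0. The week 2 libraries also differed in sex from those of weeks 0 and 7, so week and sex cannot be told apart in comparisons with week 2. Taking 700 read pairs at week 7 against 1 at week 0, the ratio was 654, with a 95% counting interval of 117 to 25852. At week 2, with 424 read pairs against 1, it was 349, with an interval of 62.3 to 13820.5. Against week 2, it rose at week 7 by a log2 fold change of 0.91 (SE 0.23), a fold of 1.88, and this call was lost without any 1 of the week 2 or week 7 libraries, where the log2 fold change lay between 0.83 and 0.99. Of the counts of the 7 Akr1c members, Akr1c18 held 0% and 0.00379% in the week 0 libraries, 0.768% and 0.733% in those of week 2, and 1.19% and 1.21% in those of week 7. The 250 bases before the RefSeq start of Akr1c18 (GRCm38.p6, chr13:4150647-4150896, minus strand) are shown because Akr1c18 had the widest ratio to week 0 among the members.
Akr1c18: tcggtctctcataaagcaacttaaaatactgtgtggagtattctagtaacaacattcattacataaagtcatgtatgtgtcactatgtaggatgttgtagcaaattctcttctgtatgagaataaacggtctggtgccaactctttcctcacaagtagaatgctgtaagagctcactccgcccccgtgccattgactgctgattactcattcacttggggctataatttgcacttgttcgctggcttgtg
None of 4 motifs looked for on both strands was found in these letters. Of 32851 promoter windows of the same length, 8.06% hold CTTTGAT or CTTTGTT (TCF/LEF factors), 10.2% hold TGACNNNGC (the antioxidant response element core), 7.02% hold TTCNNNGAA (STAT factors) and 14.0% hold TGACCT (the hexamer of nuclear receptors). The motifs do not overlap in the promoters printed here.

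Akr1b7, an aldose-reductase-like enzyme that in the mouse adrenal gland and vas deferens removes reactive aldehydes, also had 0 and 4 counts at week 0. It was at 1.77 CPM in both libraries of week 2, and at 2.78 and 2.84 CPM in those of week 7. It therefore stayed at a low level, 106 and 105 counts at week 2 and 150 and 145 counts at week 7, but no library of weeks 2 and 7 overlapped with week 0. Akr1b7 rose in both comparisons with week 0: the ratio of read pairs was 69.1 at week 7, with a 95% counting interval of 12.0 to 2766, and 43.6 at week 2, with an interval of 7.50 to 1756. Between week 7 and week 2 the log2 fold change was 0.66 (95% interval -0.47 to 1.80) and was not called. Its neighbours Akr1b3, the aldose reductase of glucose metabolism, Akr1b8 and Akr1b10 were not called in any comparison. Akr1b3 averaged 48.3 ± 2.37 CPM at week 7 and 47.6 ± 1.84 CPM at week 0. Not being called does not show that the neighbours were unchanged. Akr1b10 was higher in each week 2 library than at week 0, with a log2 fold change of 1.05 (95% interval 0.08 to 2.02). Its mean was low, no more than 1.84 CPM in any week, and sex also differed there. Akr1b8 was lower in each week 7 library than at week 0, at -0.44 (95% interval -0.90 to 0.02). Akr1b10 at week 7 and Akr1b8 at week 2 overlapped with week 0. The promoter of Akr1b7 (GRCm38.p6, chr6:34412112-34412361, plus strand) is shown because it holds 1 TCF/LEF match, its first base at -146, and 1 nuclear receptor hexamer at -248, both in capitals.
Akr1b7: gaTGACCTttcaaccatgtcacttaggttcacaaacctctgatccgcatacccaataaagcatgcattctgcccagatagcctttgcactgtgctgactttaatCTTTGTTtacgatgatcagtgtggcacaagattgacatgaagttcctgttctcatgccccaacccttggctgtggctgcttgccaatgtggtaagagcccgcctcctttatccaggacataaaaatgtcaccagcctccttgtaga

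Akr1d1, the 5-beta-reductase of bile acid synthesis and of steroid hormone breakdown, differed from week 0 in opposite directions at the 2 later weeks. It was at 147 and 135 CPM at week 0, at 316 and 307 CPM at week 2, and at 92.0 and 97.9 CPM at week 7. Both libraries of week 2 were above those of week 0, and both of week 7 were below. At week 7 it fell against week 0, with a log2 fold change of -0.57 (SE 0.055), and at week 2 it rose by 1.14 (SE 0.056), a fold of 2.21. Against week 2, it fell at week 7 with a value of -1.71 (SE 0.056), and all 3 calls held in each of 14 alternative settings. In the comparisons with week 2 the sex of the libraries also differed, so week and sex cannot be told apart there. The order of the weeks was shared by the summed Kupffer cell markers, at 413 and 411 CPM at week 0, 577 and 575 CPM at week 2, and 297 and 292 CPM at week 7. The summed stellate cell and fibroblast markers had the same order, at 248 and 251 CPM at week 0, 368 and 371 CPM at week 2, and 168 and 181 CPM at week 7. The liver endothelium markers, at 223 and 238 CPM at week 0, 284 and 278 CPM at week 2, and 206 and 213 CPM at week 7, were also highest at week 2 and lowest at week 7. Of the hepatocyte markers, Alb had this order, and the sum of the other 6 was lowest at week 2. Summed cholangiocyte markers were at 19.3 and 19.7 CPM at week 0, 30.3 and 36.8 CPM at week 2, and 19.2 and 19.5 CPM at week 7. Summed leukocyte markers were at 5.79 and 7.59 CPM, 14.6 and 13.2 CPM, and 8.04 and 6.90 CPM in the same weeks. For both sums, week 2 was highest and the libraries of week 7 overlapped those of week 0. Of 7 Kupffer cell markers 7 fell at week 7 and 5 rose at week 2 against week 0. Of 8 stellate cell markers 5 fell and 1 rose at week 7, and 5 rose and 1 fell at week 2. Of 6 liver endothelium markers 1 fell and 0 rose at week 7, and 3 rose and 0 fell at week 2. Clec4g averaged 83.8 CPM at week 0 and 62.8 CPM at week 7. The means of Kdr, Pecam1 and Oit3 were also lower at week 7 than at week 0, and those of Stab2 and Lyve1 were higher. The part of these cell types in the values of Akr1d1 was not tested, and in bulk liver fewer cells of a type and less RNA per cell cannot be told apart. The promoter of Akr1d1 (GRCm38.p6, chr6:37529923-37530172, plus strand) is shown for its 2 nuclear receptor hexamers, in capitals, with first bases at -232 and -210.
Akr1d1: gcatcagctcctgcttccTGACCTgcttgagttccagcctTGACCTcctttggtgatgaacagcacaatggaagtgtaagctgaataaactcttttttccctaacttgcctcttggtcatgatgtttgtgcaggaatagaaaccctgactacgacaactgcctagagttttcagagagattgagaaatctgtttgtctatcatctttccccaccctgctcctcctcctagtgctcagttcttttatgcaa

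Of 11 other genes of bile acid synthesis, 3 rose and 4 fell at week 7 against week 0, beside 13.8% of all tested genes called. The list median was -0.08 on the log2 scale against 0.00 for all tested genes. In the comparison of week 2 with week 0, 18.6% of all tested genes were called. Cyp7a1, the rate-limiting enzyme of the classical pathway, averaged 131 ± 8.50 CPM at week 7 against 72.0 ± 4.28 CPM at week 0, and its log2 fold change was 0.87 (SE 0.069, edgeR adjusted p = 8.4e-05). Amacr (0.59, adjusted p = 6.03e-05) and Acox2 (0.41, adjusted p = 0.00355), which work on the side chain in peroxisomes, also rose. Cyp7b1 (-0.53, adjusted p = 8.17e-05), Scp2 (-0.23, adjusted p = 0.000624), Cyp27a1 (-0.25, adjusted p = 0.00481) and Cyp8b1 (-0.40, adjusted p = 0.00663) fell in the same fit. At week 2, 1 rose and 5 fell: Cyp7a1 averaged 150 ± 6.08 CPM, a log2 fold change of 1.06 against week 0 (edgeR adjusted p = 1e-05), while Cyp7b1, which is male-biased, averaged 79.9 ± 1.38 CPM at week 2 and 457 ± 13.1 CPM at week 0 (adjusted p = 1.56e-09). Akr1d1 and Cyp7a1 were both higher at week 2, where the sex of the libraries also differed, than at week 0. At week 7 Akr1d1 was lower and Cyp7a1 higher than at week 0.

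Akr1c19, the lowest per length of the members detected at week 0, was at 62.4 and 57.0 CPM at week 0, 34.6 and 31.9 CPM at week 2, and 30.4 and 29.6 CPM at week 7. Each library of weeks 2 and 7 lay below both libraries of week 0. It fell against week 0 with a log2 fold change of -0.99 (SE 0.087) at week 7 and of -0.84 (SE 0.087) at week 2, and both calls held in all 14 alternative settings. Between week 7 and week 2 the difference was -0.15 (95% interval -0.35 to 0.05) and was not called.

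Akr1c14 was at 748 and 725 CPM at week 0, 495 and 494 CPM at week 2, and 649 and 701 CPM at week 7. It fell at week 2 with a log2 fold change of -0.57 (SE 0.042) against week 0, and rose at week 7 by 0.45 (SE 0.042) against week 2. At week 7 both libraries were below those of week 0, with a log2 fold change of -0.13 (95% interval -0.22 to -0.03) that was not called. Akr1c20 was at 118 and 122 CPM at week 0, 173 and 163 CPM at week 2, and 126 and 138 CPM at week 7. Its direction was opposite to that of Akr1c14: it rose at week 2 by 0.49 (SE 0.061) against week 0, and fell at week 7, at -0.35 (SE 0.061) against week 2. At week 7 against week 0 its value was 0.14 (95% interval 0.00 to 0.28) and was not called. The calls of Akr1c14 and Akr1c20 in comparisons with week 2 held in all 14 alternative settings, and these are the comparisons in which the sex of the libraries also differed.

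Akr1c6 was at 1306.5 and 1095 CPM at week 0, 1065 and 978 CPM at week 2, and 1170.2 and 1207 CPM at week 7. The libraries of week 7 lay between those of week 0, and those of week 2 lay below both. Neither was called: the log2 fold change was -0.02 (95% interval -0.28 to 0.25) at week 7 and -0.23 (95% interval -0.49 to 0.03) at week 2. Akr1c12 was at 81.8 and 75.8 CPM at week 0, 68.5 and 65.6 CPM at week 2, and 73.9 and 80.1 CPM at week 7. Its log2 fold change was -0.03 (95% interval -0.20 to 0.13) at week 7 and -0.23 (95% interval -0.40 to -0.07) at week 2, and neither was called.

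Akr1c13 was at 106 and 111 CPM at week 0, 94.6 and 90.4 CPM at week 2, and 94.8 and 90.7 CPM at week 7. All 4 later libraries were below both of week 0, with a log2 fold change of -0.23 (SE 0.060) at week 7 and -0.23 (SE 0.060) at week 2, and both were called. The week 7 call was lost on leaving out any 1 of the 6 libraries, where the value lay between -0.26 and -0.20. The week 2 call was lost on leaving out any 1 of the week 0 or week 2 libraries, where it lay between -0.27 and -0.20. With library totals in place of TMM neither was called, at -0.19 for week 7 and -0.14 for week 2. Summed, Akr1c12 and Akr1c13 were at 188 and 187 CPM at week 0, 163 and 156 CPM at week 2, and 169 and 171 CPM at week 7, and the sum fell at week 2 with a log2 fold change of -0.23 (SE 0.045) and was not called at week 7, at -0.14 (SE 0.045).

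**Figure D2:**
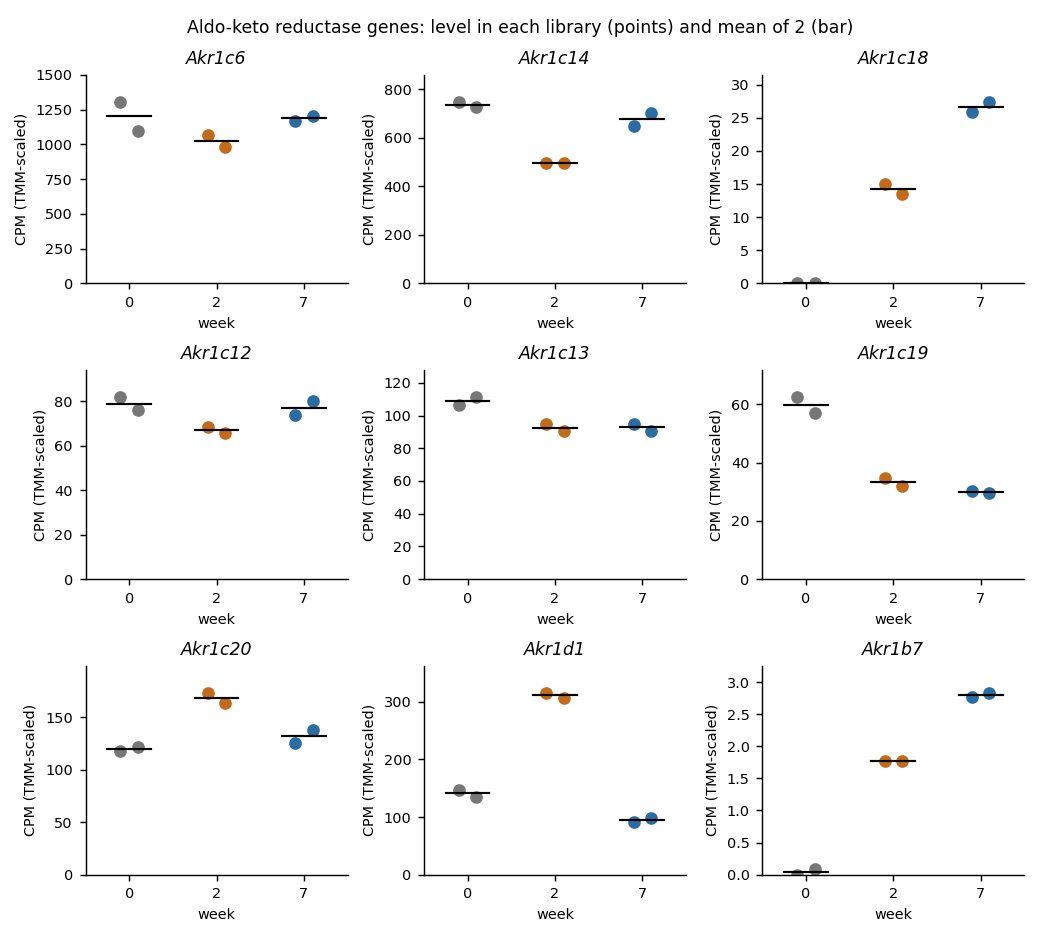
TMM-scaled CPM of each member in each library (points) and the mean of 2 libraries (bar), by week, with every axis starting at 0. Akr1c18 and Akr1b7 lie at or near 0 at week 0, Akr1d1 has its highest libraries at week 2, and Akr1c19 is lower at weeks 2 and 7 than at week 0.

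Counted over the members, 2 rose and 3 fell at week 7 against week 0, so 5 of 9 were called, where 13.8% of all tested genes were called, 7.58% higher and 6.23% lower. At week 2 against week 0, 4 rose and 3 fell, 7 of 9, where 18.6% of all tested genes were called, 9.81% higher and 8.81% lower. At week 7 against week 2, 2 rose and 2 fell, 4 of 9, beside 19.8% of all genes, 10.1% higher and 9.73% lower. Nothing is read from these shares, since the members were chosen with the same values known. The member median was -0.03, -0.23 and 0.20 on the log2 scale in these comparisons, against 0.00, 0.01 and 0.00 for all tested genes. Summed, the 7 Akr1c genes were at 2422 and 2186 CPM at week 0, 1947 and 1837 CPM at week 2, and 2170.4 and 2273 CPM at week 7. The sum was not called at week 7 against week 0, with a log2 fold change of -0.05 (95% interval -0.19 to 0.08), and it fell at week 2 against week 0, at -0.28 (SE 0.056).

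**Figure D3:**
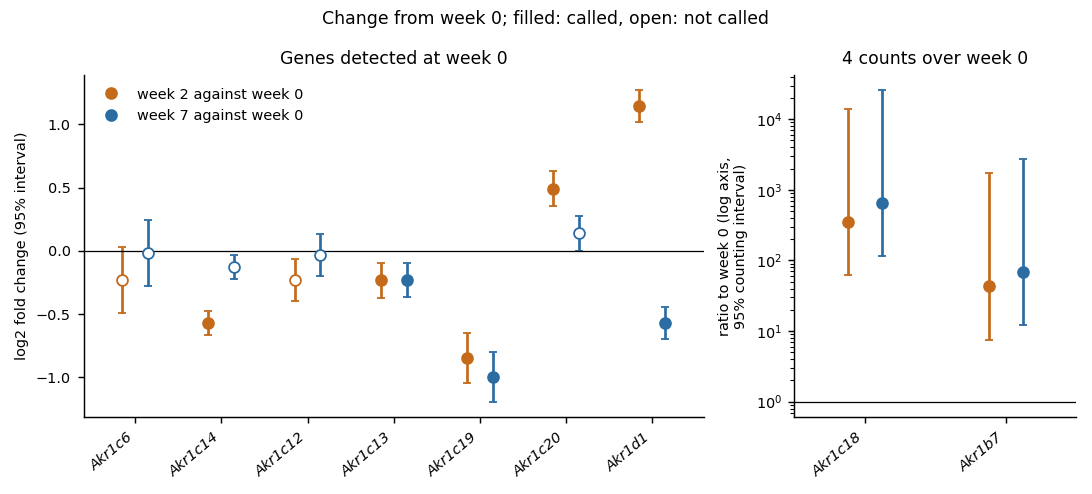
Log2 fold change with its 95% interval for the 7 members detected at week 0 (left) and the ratio to week 0 with its 95% counting interval, on a log axis, for the 2 members with 4 counts over both week 0 libraries (right). Filled points were called: Akr1d1 is above 0 at week 2 and below 0 at week 7, and Akr1c19 and Akr1c13 are below 0 at both.

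Aldo-keto reductases outside the list gave no called gene. Of 8, Akr1cl had 0 counts in every library and the other 7 were tested: 0 were called by edgeR in either comparison with week 0, 0 by DESeq2, and at an unadjusted edgeR p under 0.05 there were 0 at week 7 and 1 at week 2. Akr1a1, which reduces a broad range of aldehydes, averaged 445 ± 13.4 TPM at week 7 and 463 ± 8.31 TPM at week 0, and Akr7a5 averaged 227 ± 11.4 TPM at week 7 and 205 ± 8.06 TPM at week 0. Akr1c21, the next gene on chromosome 13 and best known from mouse kidney, was at or below 0.288 TPM on average in every week.

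Among 15 tested hydroxysteroid dehydrogenases and 5-alpha-reductases, 2 rose and 3 fell at week 7 against week 0, with a median of -0.08. Of all tested genes, 13.8% were called in that comparison. Hsd3b5, a male-biased liver enzyme, averaged 191 ± 2.72 CPM at week 7 and 256 ± 8.41 CPM at week 0 (log2 fold change -0.42, edgeR adjusted p = 0.000621). Srd5a1, which makes the 5-alpha-reduced steroids that Akr1c14 acts on (-0.48, edgeR adjusted p = 0.000671), and Hsd17b13, a lipid droplet protein (-0.46, adjusted p = 0.0016), fell as well. Hsd17b11 rose by 0.28 (edgeR adjusted p = 0.00355). Hsd3b1 had 0 counts in both libraries of week 0 and 20 and 50 counts in those of week 7, at least 2.76-fold higher at week 7 with week 0 set to the floor of 3 read pairs in each library (edgeR adjusted p = 0.0231). That call was lost without either library of week 0 or week 2, with an adjusted p of up to 0.0756. At week 2 against week 0, where the sex of the libraries also differed, 3 rose and 6 fell, beside 18.6% of all tested genes called. Hsd3b1 was at least 108-fold higher (edgeR adjusted p = 0.000716), Hsd17b6 rose by 0.41 (adjusted p = 0.0012) and Hsd17b2 by 0.38 (adjusted p = 0.00949), the last lost without replicate 1 of week 0 or of week 2, where the fold change lay between 0.31 and 0.44 on the log2 scale. Hsd3b5 (-4.90, edgeR adjusted p = 1.47e-10), Hsd3b2 (-2.08, adjusted p = 9.14e-08), Srd5a1 (-1.01, adjusted p = 3.07e-06) and Hsd3b3 (-0.35, adjusted p = 0.00443) fell.

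Of 9 tested genes of steroid hydroxylation, sulfation and glucuronidation, 1 rose and 6 fell at week 7 against week 0, with a median of -0.21. Of all tested genes, 13.8% were called in that comparison. Sult1e1, the oestrogen sulfotransferase, averaged 15.3 ± 0.328 CPM at week 7, with 837 and 769 counts, and 0.102 ± 0.00247 CPM at week 0, with 5 counts in each library (edgeR adjusted p = 1.88e-05). Sult2a8, a bile acid sulfotransferase of male mouse liver, fell (-0.49, edgeR adjusted p = 0.000229). Ugt2b38 (-0.89, edgeR adjusted p = 0.0142) and Ugt2b1 (-0.21, adjusted p = 0.0219) were called too, and both calls depended on single libraries. That of Ugt2b38 was lost without any 1 of the week 0 or week 7 libraries (-0.98 to -0.80), and that of Ugt2b1 without either library of week 0 or replicate 1 of week 7 (-0.28 to -0.13). At week 2 against week 0, where the sex of the libraries also differed, 2 rose and 6 fell, beside 18.6% of all tested genes called. Cyp17a1, which makes androgens from progestins, averaged 20.5 ± 0.888 CPM at week 2 and 0.696 ± 0.574 CPM at week 0 (edgeR adjusted p = 0.00395). Ugt2b1 (-1.15, edgeR adjusted p = 4.99e-07), Ugt2b5 (-0.68, adjusted p = 5.29e-06) and Sult2a8 (-0.54, adjusted p = 6.8e-05) were among those that fell.

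**Figure D4:**
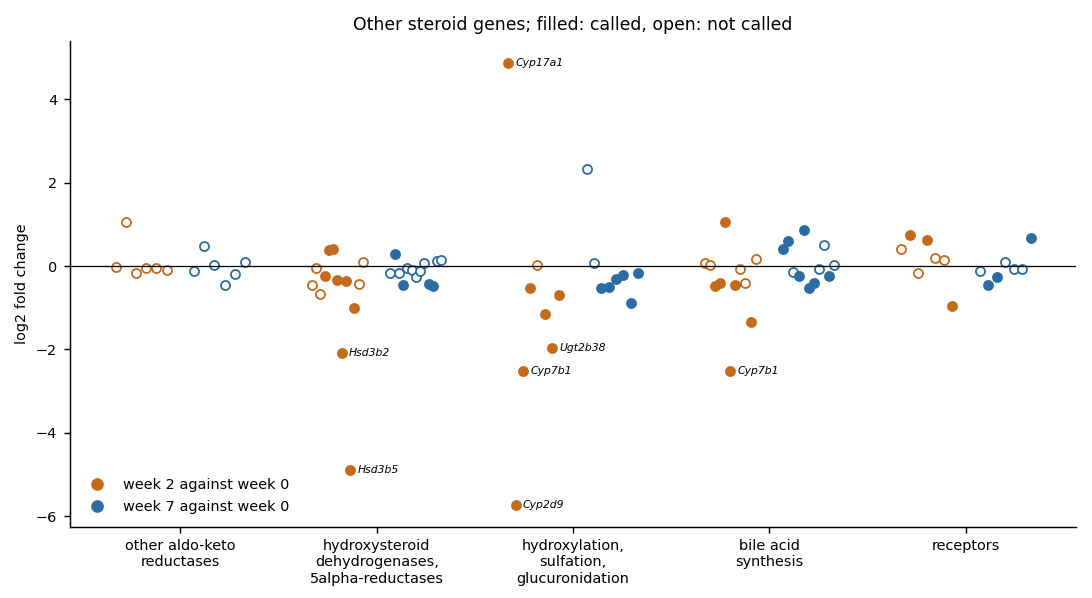
Log2 fold change of the other listed genes against week 0, at week 2 and week 7, one point a gene, filled where called. Genes below 1 CPM in every week are not drawn, nor are Hsd3b1 and Sult1e1, which were at or near 0 at week 0. The other aldo-keto reductases drawn have no filled point, and the points farthest from 0 belong to week 2.

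The genes whose pattern over the 6 libraries was closest to that of each member, by Euclidean distance between centred log2(CPM + 0.5) values among 9206 genes with at least 5 CPM in their highest week, were found as a description. Nearest to Akr1c18 were Ly6d, Cpe and Car4, at distances of 1.14, 1.21 and 1.27. Ly6d averaged 0.471 CPM at week 0, 12.4 CPM at week 2 and 24.9 CPM at week 7. Nearest to Akr1d1 were Hacl1 (0.254), Bgn (0.278) and Pdgfrb (0.285): Hacl1, a peroxisomal lyase, averaged 199 CPM at week 0, 473 CPM at week 2 and 157 CPM at week 7. Pdgfrb is on the list of stellate cell markers, and Bgn is a matrix proteoglycan. Nearest to Akr1c19 were Cdk2ap2 (0.173), Ntrk2 (0.217) and Hsph1 (0.219), and nearest to Akr1c14 were Ces2a (0.0719), Ces1f (0.0792) and Cyp2c29 (0.0998). Akr1c20 was nearest to Adam23 (0.0481) and Lpgat1 (0.0885), Akr1c6 to Zmpste24 (0.0905), Akr1c12 to Psme4 (0.0508) and Akr1c13 to Atf4 (0.0538). Members with small changes have small distances for that reason alone, so the distances do not compare between members. For genes near 0 at week 0, as Akr1c18 and Akr1b7 are, the distance also depends on the added 0.5, and since Akr1b7 has no more than 2.84 CPM in any library its nearest genes are not given.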

How the data were processed

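TruSeq V2 libraries of poly-A RNA were read from both ends, per the labels' protocols. Bowtie 0.12.2 and mm8 appear in the submitters' processing notes without a stated use, and neither the program that counted reads nor its annotation is stated there. The deposited values are estimated counts for Ensembl genes, with no scaling by the authors for depth. All values were whole (0 were rounded), and 54409 of 54446 identifiers matched a GENCODE M21 symbol, leaving at most 0.00079% of a library's counts without one. Since some identifiers are newer than mm8, the build of the counts is unsure and coordinates are given only for RefSeq promoters.

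Groups came from the titles. The fit used edgeR 4.0.16 (limma 3.58.1, R 4.3.3): filterByExpr, TMM factors, robust quasi-likelihood dispersion with 1 coefficient a week over 6 libraries (3 residual degrees of freedom), two-sided tests and Benjamini-Hochberg adjustment over 15368 genes, tested on simulated data first. Intervals of fold changes are at the 95% level and not adjusted for the number of genes. Alternatives were other scalings, no filter, DESeq2 1.42.0, counts divided by 4, only the 4 libraries compared, a replicate block, summed rows and each library left out. Ratios against 1 read pair have exact intervals, which, like the floor of 3 read pairs, cover counting error only.

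The members and all lists were chosen with earlier results of these data known. From each other list, up to 4 called genes in each direction per comparison were named, in order of adjusted p, together with any aldo-keto reductase, all 9 members and the 3 genes nearest to each member, of which only some are printed. Lengths, coding identity, shared stretches and motifs came from GENCODE M21 and RefSeq tables (Python 3.11.15, pandas 2.3.3, Biopython 1.88, matplotlib 3.10.9). Of the 9 members, 8 matched the RefSeq promoter table, and Akr1c20 did not.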

Additional observations from a re-analysis of the deposited data

How the results depend on the processing

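Leaving out each library in turn gave 1298 to 1856 called genes at week 7 against week 0 (2123 with all libraries), the lower values without week 0 replicate 1 (1328), week 0 replicate 2 (1380) or week 7 replicate 1. It gave 1801 to 2752 at week 2 against week 0 (2862 with all), with 1801 and 1826 without week 2 replicate 1 and replicate 2. It gave 1842 to 2961 at week 7 against week 2 (3040 with all), with 1842 and 1923 without the same libraries. Called members numbered 4 to 5, 6 to 7 and 3 to 5 in these comparisons. With the Akr1c members summed to 1 row, 2, 3 and 2 of the 3 rows left were called in the same order of comparisons, since fewer rows were counted. Library totals alone in place of TMM gave 2007 higher and 913 lower calls at week 2 against week 0, where TMM gave 1508 and 1354. At week 7 against week 2 they gave 1248 higher and 1784 lower, and upper-quartile scaling 1258 and 1799, where TMM gave 1545 and 1495; the cause was not tested. Replicate numbers do not pair the libraries (correlations of the replicate differences -0.00606, -0.0269 and -0.0552), and with a replicate block 1702, 2436 and 2620 genes and 4, 6 and 3 members were called. DESeq2 called 5, 9 and 4 members, with 2705, 3441 and 3572 genes. Of the member calls, those of Akr1c13 in both comparisons with week 0 and of Akr1c18 at week 7 against week 2 were lost in some settings, and those of Akr1c6, Akr1c12 and Akr1c14 that had not been made were made in some. Over 14 settings no member reversed its direction while called. With 2 libraries a week, small differences cannot be told from the spread between libraries, and Akr1b7 rests on 105 to 150 counts a library at weeks 2 and 7.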

Other observations

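Receptors that bind steroids, bile acids or drugs were measured beside these enzymes. Of 8 tested, 1 rose and 2 fell at week 7 against week 0, and 2 rose and 1 fell at week 2 against week 0. Of all tested genes, 13.8% and 18.6% were called in these comparisons. Nr3c2, the mineralocorticoid receptor, averaged 17.8 ± 0.065 CPM at week 7 and 11.2 ± 0.228 CPM at week 0 (log2 fold change 0.67, edgeR adjusted p = 0.01), and 5.79 ± 0.0971 CPM at week 2 (-0.95 against week 0, adjusted p = 0.00113). Esr1, the oestrogen receptor alpha, averaged 27.8 ± 2.94 CPM at week 7 and 38.1 ± 3.30 CPM at week 0 (-0.46, edgeR adjusted p = 0.0168), and 64.0 ± 0.234 CPM at week 2 (0.75, adjusted p = 0.000848). The bile acid receptor Nr1h4 fell at week 7 (-0.28, edgeR adjusted p = 0.0227). The week 7 call of Nr3c2 was lost without week 0 replicate 1 or either week 7 library (log2 fold changes of 0.65 to 0.69 over the libraries left out in turn), that of Esr1 without week 0 replicate 2 or week 7 replicate 1 (-0.57 to -0.35), and that of Nr1h4 without either week 0 library or week 7 replicate 1 (-0.31 to -0.23). Nr1i2, the pregnane X receptor, rose at week 2 by 0.62 (edgeR adjusted p = 0.000192). The libraries of week 2 differ from those of week 0 in sex as well as week.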
